A study of Mus musculus with 12 samples.

Results

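The 7 genes described here encode the inhibitors of cyclin-dependent kinases: the 4 INK4 genes Cdkn2a, Cdkn2b, Cdkn2c and Cdkn2d, and the 3 CIP/KIP genes Cdkn1a, Cdkn1b and Cdkn1c. They were chosen by name, and all 7 were found among the 55276 gene symbols whose promoter windows were counted. The samples were E12.5 mouse forebrains (midgestation embryos) of the C57BL/6 strain, untreated, either wild type or of a genotype labelled EedcKO. Eed is a core subunit of Polycomb repressive complex 2, the enzyme complex that trimethylates lysine 27 of histone H3 (H3K27me3). In each genotype Eed and its input DNA were profiled by X-ChIP, and H3K27me3, acetylation of the same lysine (H3K27ac), RNA polymerase II (RNA-Pol2) and a nonspecific IgG control by CUT&Tag, with 1 library for each, 12 in all. The sources used here do not say what part of Eed is altered, in which cells, or how many embryos of which sex were taken. With 1 library for each genotype and target no difference has a replicate check, so every comparison below describes these libraries, and intervals cover counting error only.

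INK4 proteins bind the monomeric kinases CDK4 and CDK6 and keep D-type cyclins from activating them, whereas CIP/KIP proteins bind assembled cyclin-CDK complexes, those of CDK2 above all. Cdkn2a encodes 2 unrelated proteins from separate first exons, the INK4 protein p16INK4a and the protein ARF, which stabilises p53 by holding Mdm2, and it is a well-known target of Polycomb repression in dividing cells. In the embryonic brain Cdkn1b (p27), Cdkn1c (p57) and Cdkn2d (p19INK4d) are known for the cell cycle exit of neural progenitors, and Cdkn1a (p21) is a classic target of p53.

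CpG-rich promoters are a common feature of Polycomb targets in mammals, and both Cdkn2a and Cdkn1a have RefSeq start sites that differ in this respect. The sequences at those start sites are therefore shown, with Cdkn1b for comparison because its promoter is rich in CpG and carried little H3K27me3. Each run is the 250 bases before a RefSeq start site (assembly GRCm38.p6), 5′ to 3′ on the gene's strand, with CpG dinucleotides in capitals.
Cdkn2a, ARF start (chr4:89294620-89294869, minus strand): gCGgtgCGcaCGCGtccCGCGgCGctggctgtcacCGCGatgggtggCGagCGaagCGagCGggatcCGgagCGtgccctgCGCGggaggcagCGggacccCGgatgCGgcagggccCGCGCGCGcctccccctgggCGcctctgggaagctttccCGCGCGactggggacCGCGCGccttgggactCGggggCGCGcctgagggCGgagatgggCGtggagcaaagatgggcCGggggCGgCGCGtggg
Cdkn2a, p16INK4a start (chr4:89282193-89282442, minus strand): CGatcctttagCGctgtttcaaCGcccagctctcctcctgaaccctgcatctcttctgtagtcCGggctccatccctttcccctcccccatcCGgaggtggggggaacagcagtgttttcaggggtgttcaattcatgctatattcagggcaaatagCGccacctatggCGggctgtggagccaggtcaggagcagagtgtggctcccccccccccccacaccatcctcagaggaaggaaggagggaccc
Cdkn1a, upstream start (chr17:29090729-29090978, plus strand): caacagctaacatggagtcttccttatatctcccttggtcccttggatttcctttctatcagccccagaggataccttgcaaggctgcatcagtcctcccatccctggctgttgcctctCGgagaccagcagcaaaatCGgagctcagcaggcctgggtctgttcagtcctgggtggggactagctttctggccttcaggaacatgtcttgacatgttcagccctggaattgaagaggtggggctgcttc
Cdkn1a, downstream start (chr17:29093519-29093768, plus strand): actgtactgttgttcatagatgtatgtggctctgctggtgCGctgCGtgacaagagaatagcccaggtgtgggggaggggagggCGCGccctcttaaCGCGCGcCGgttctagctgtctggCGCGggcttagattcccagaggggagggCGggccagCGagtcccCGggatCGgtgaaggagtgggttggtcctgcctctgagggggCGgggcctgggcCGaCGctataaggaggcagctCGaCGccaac
Cdkn1b (chr6:134920151-134920400, plus strand): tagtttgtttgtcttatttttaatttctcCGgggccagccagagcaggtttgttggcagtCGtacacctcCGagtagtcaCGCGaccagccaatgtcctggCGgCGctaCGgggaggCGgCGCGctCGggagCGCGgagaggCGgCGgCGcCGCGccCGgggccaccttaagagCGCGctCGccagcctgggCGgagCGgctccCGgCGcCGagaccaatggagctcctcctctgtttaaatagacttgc
The printed runs hold 40, 7, 2, 19 and 28 CpGs in that order.

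Promoter sequences were found for 6 of the 7 genes, 9 promoters in all, and counts over the full 300 bases of the promoter table (250 before the start to 50 after it) place them among 32851 promoters. The ARF promoter of Cdkn2a held 45 CpGs, a number reached by 1.93% of all promoters, and its GC content was 77.0%, against a median promoter of 7 CpGs and 52.7%. The p16INK4a promoter held 12 CpGs, reached by 39.6% of promoters. Cdkn2c had 33 CpGs at its upstream start and 8 at its downstream start, Cdkn1b 30, Cdkn2d 22 and Cdkn2b 18. The Cdkn1a promoters held 2 CpGs at the upstream start, reached by 85.9% of all promoters, and 23 at the downstream start, reached by 21.5%. GC boxes (GGGCGG on either strand), found in 35.7% of all promoters, occurred in 7 of these 9 and were missing from the upstream Cdkn1a start and the downstream Cdkn2c start. The E2F motifs TTTCGCGC and TTTGGCGC (both strands) were in none of the 9 and in 0.813% of all promoters.

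The authors' values for 2 kb windows centred on annotated start sites were whole numbers, treated here as read counts. Their totals over all windows ran from 948955 to 3842779 per library. Each library's label was checked against its pattern over all 55385 windows before the members were read. The library labelled EedcKO H3K27ac followed wild type H3K27me3 (Pearson r 0.936 across windows) more closely than it followed wild type H3K27ac (0.680). Conversely, the one labelled EedcKO H3K27me3 followed wild type RNA-Pol2 (0.931), EedcKO IgG (0.871) and wild type H3K27ac (0.867) more closely than wild type H3K27me3 (0.736). The values below are given by label, with "the library labelled" before both, and the ratios and list counts that rest on them are also given with the 2 labels exchanged. The Eed gene's own window held 121 Eed counts in wild type and 40 in EedcKO, with 27 and 19 in input, but a window at the start site does not show which part of the gene was deleted. As a check of the tissue, 10 forebrain genes had a median wild type percentile of 83.5 for H3K27ac and 86.9 for RNA-Pol2, against 27.5 and 49.2 for 5 Hox genes of the hindbrain and trunk. The forebrain genes also ranked high for wild type H3K27me3, at a median percentile of 97.7, below the 99.7 of the Hox genes. The same medians were 65.6 and 56.8 for 5 erythroid markers, 57.2 and 44.2 for microglia, 65.6 and 74.3 for endothelium, and 69.2 and 70.4 for mesenchyme. Tissue of mixed cell types was profiled, so a mark in fewer cells and a weaker mark in each cell cannot be told apart.

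In wild type forebrain, 3 INK4 genes and Cdkn1c were marked with H3K27me3, and Cdkn2a stood highest. The Cdkn2a window held 1123 H3K27me3 counts against 23 in IgG, a 20.6-fold enrichment after scaling both libraries by their totals (log2 4.36, 95% counting interval 3.85 to 5.11). It ranked at the 99.4th percentile of all windows of that library. Cdkn2b, which encodes p15INK4b and lies beside Cdkn2a, held 568 counts against 32 (log2 2.93, 2.47 to 3.55). Cdkn2c, the gene of p18INK4c, held 287 against 25 (log2 2.29, 1.77 to 3.01), and Cdkn1c, an imprinted CIP/KIP gene, held 230 against 28 (log2 1.82, 1.31 to 2.50). The Cdkn1c window shares 699 bp, and so reads, with that of the opposite-strand gene model Gm44732. These 4 of 7 genes were at least 2-fold above IgG, as were 7.62% of all promoters tested. The other 3 lay near the control: Cdkn1a had 71 counts against 22 (log2 0.50), Cdkn1b 65 against 24 (log2 0.26) and Cdkn2d 69 against 37 (log2 -0.25). In the order of the counts, each of Cdkn2a, Cdkn2b, Cdkn2c and Cdkn1c exceeded the next gene beyond counting error, with ratios of 1.98 (1.79 to 2.19), 1.98 (1.71 to 2.29), 1.25 (1.05 to 1.49) and 3.24 (2.47 to 4.29). The counts of Cdkn1a, Cdkn2d and Cdkn1b could not be ordered at this depth.

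Eed lay at the same 4 genes, and at Cdkn1b it was also above its control. Cdkn1c held 297 wild type Eed counts against 27 in input (5.51-fold, log2 2.46), and Cdkn2a held 207 against 19 (5.39-fold, log2 2.43). Cdkn2c followed with 170 against 25 (log2 1.77), Cdkn2b with 119 against 20 (log2 1.57) and Cdkn1b with 139 against 29 (log2 1.28). The interval of Cdkn1b (0.72 to 1.94) spans 2-fold. In all, 5 of 7 genes were at least 2-fold above input, against 14.5% of all promoters tested. Cdkn2d, with 84 against 41, was level with its control (log2 0.08), and Cdkn1a, with 12 against 20, lay below it (log2 -1.54). The median of all promoters tested was itself -1.32 on this scale. Cdkn1a thus ranked at the 41.9th percentile of them, near a typical promoter, and Cdkn2d at the 75.6th. Cdkn1c stood above Cdkn2a by a count ratio of 1.44 (1.20 to 1.72), whereas Cdkn2a and Cdkn2c, Cdkn2c and Cdkn1b, and Cdkn1b and Cdkn2b did not differ beyond counting error.

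**Figure D1:**
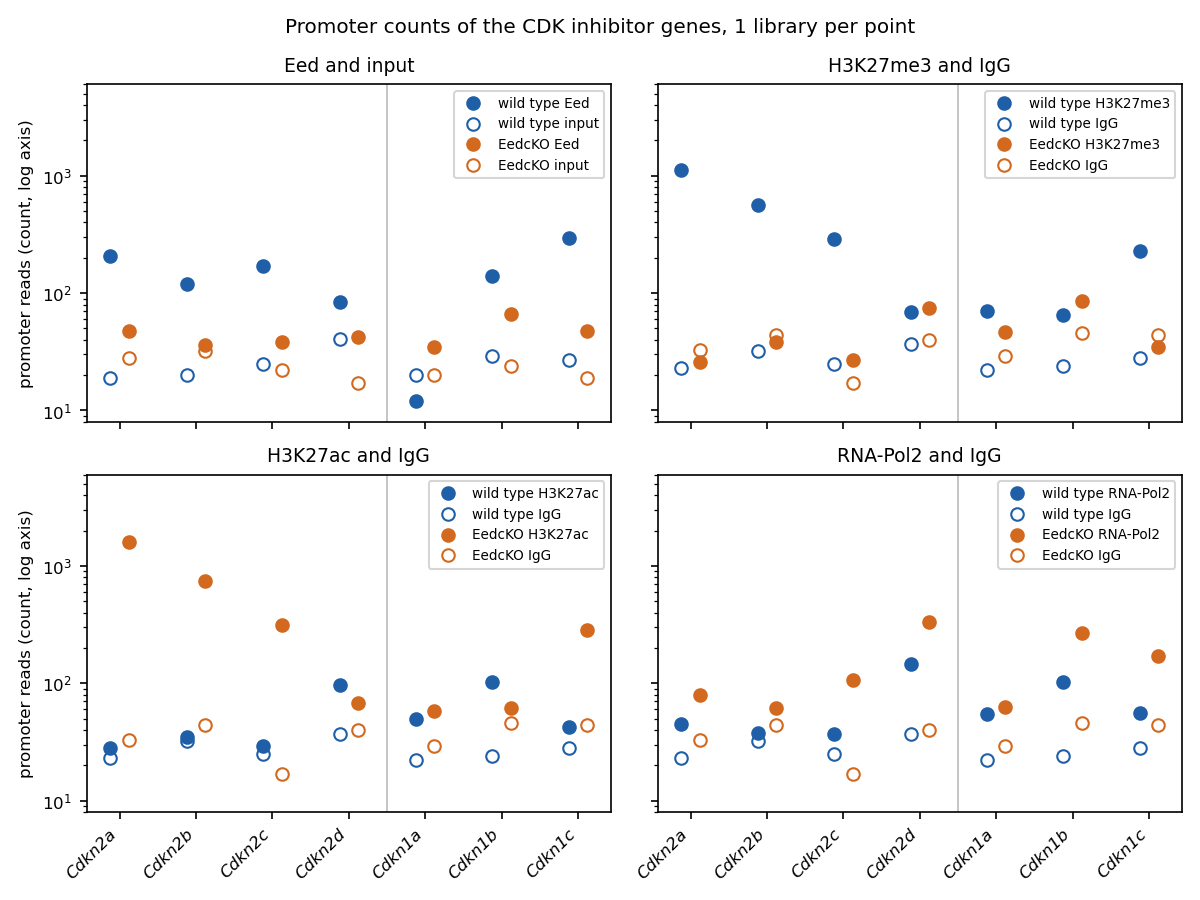
Reads in the promoter window (vertical axis, counts, log scale) of the 7 CDK inhibitor genes, 1 panel per target, with filled points for the antibody library and open points for its input or IgG control, in blue for wild type and orange for the libraries labelled EedcKO. Cdkn2a, Cdkn2b, Cdkn2c and Cdkn1c stand at 1123, 568, 287 and 230 counts in wild type H3K27me3, and the same 4 genes are highest in the library labelled EedcKO H3K27ac.

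Between the families, the INK4 genes had more H3K27me3 than the CIP/KIP genes in wild type. The INK4 median of log2 H3K27me3 over IgG was 2.61 and the CIP/KIP median 0.50, a difference of 2.11, while the median of all promoters was -1.03. The difference was carried by 3 INK4 genes, since Cdkn2d lay below every CIP/KIP gene on this scale, and Cdkn1c lay among the INK4 genes. For wild type Eed the medians were 1.67 and 1.28, a difference of 0.39 that is smaller than the spread within either family. The order was the opposite for H3K27ac (INK4 -0.20, CIP/KIP 0.69) and for RNA-Pol2 (-0.04 and 0.48). Members are not replicates of a family, so the medians describe these genes and carry no test.

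H3K27ac and RNA-Pol2, the marks of active promoters, lay on different members. In wild type, Cdkn1b held 103 H3K27ac counts against 24 in IgG (log2 1.59, 0.99 to 2.35) and was the 1 member of 7 at least 2-fold above the control, beside 15.9% of all promoters tested. Cdkn2d followed with 97 against 37 (log2 0.90). Cdkn1a held 50 counts, Cdkn1c 42, Cdkn2b 35, Cdkn2c 29 and Cdkn2a 28, against IgG counts of 22 to 32 in those 5 windows. For RNA-Pol2, Cdkn2d held 145 counts (log2 1.13 over IgG, 98.4th percentile) and Cdkn1b 102 (log2 1.23), and these 2 of 7 were at least 2-fold above IgG, against 11.3% of all promoters tested. The remaining genes held 37 to 56 RNA-Pol2 counts, namely Cdkn1c 56, Cdkn1a 55, Cdkn2a 45, Cdkn2b 38 and Cdkn2c 37. So Cdkn1b and Cdkn2d were highest for both, and these 2 genes were the lowest of the 7 for H3K27me3 over IgG.

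The Cdkn2a and Cdkn2b genes are neighbours on the minus strand of chromosome 4 (mm10). From the RefSeq starts, p16INK4a lies at 89282192, ARF 12427 bp upstream at 89294619, and Cdkn2b a further 16413 bp upstream at 89311032. The counted Cdkn2a window (chr4:89293653-89295652) holds the ARF start, while the p16INK4a start is 11461 bp outside it, so every Cdkn2a count above is of the ARF promoter. Within 100 kb of the 2 windows the deposited lists held 11 wild type Eed summits (peak maxima), 5 wild type H3K27me3 summits and none of wild type H3K27ac or RNA-Pol2. Eed summits lay 25 bp upstream of the ARF start (score 77.9, the authors' -log10 of a p or q value, used here only as a description), 310 bp downstream of the Cdkn2b start (65.1) and 34 bp downstream of the p16INK4a start (6.12). All 3 promoters thus had an Eed summit within 1 kb, with a far lower score at p16INK4a.

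H3K27me3 summits at the locus lay to the side of the starts rather than on them. The highest-scoring one was 5668 bp downstream of the p16INK4a start (score 235), and the next was 1211 bp upstream of the ARF start (139). Another, 2658 bp upstream of the Cdkn2b start, scored 5.38, and the remaining 2 scored 4.68 and 2.60. The mark also reached the window of the gene model Gm12606 (chr4:89272403-89274402), which begins 71 bases past the 3′ end of Cdkn2a. That window held 979 H3K27me3 counts in wild type but 6 Eed counts against 28 in input. The next gene models on either side, Tgif2-ps1 and Gm12609, held 19 and 16 H3K27me3 counts. In the library labelled EedcKO H3K27ac, 3 summits were listed, 1209 bp upstream of ARF (score 217), 5527 bp downstream of p16INK4a (362) and another of score 4.19. The former 2 lie at nearly the same places as those of wild type H3K27me3, with the gene-body pair 141 bp apart. In EedcKO, 2 Eed summits were listed, the nearer one 4732 bp upstream of the p16INK4a start (score 4.41), and none was listed for EedcKO RNA-Pol2 or for the library labelled EedcKO H3K27me3.

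**Figure D2:**
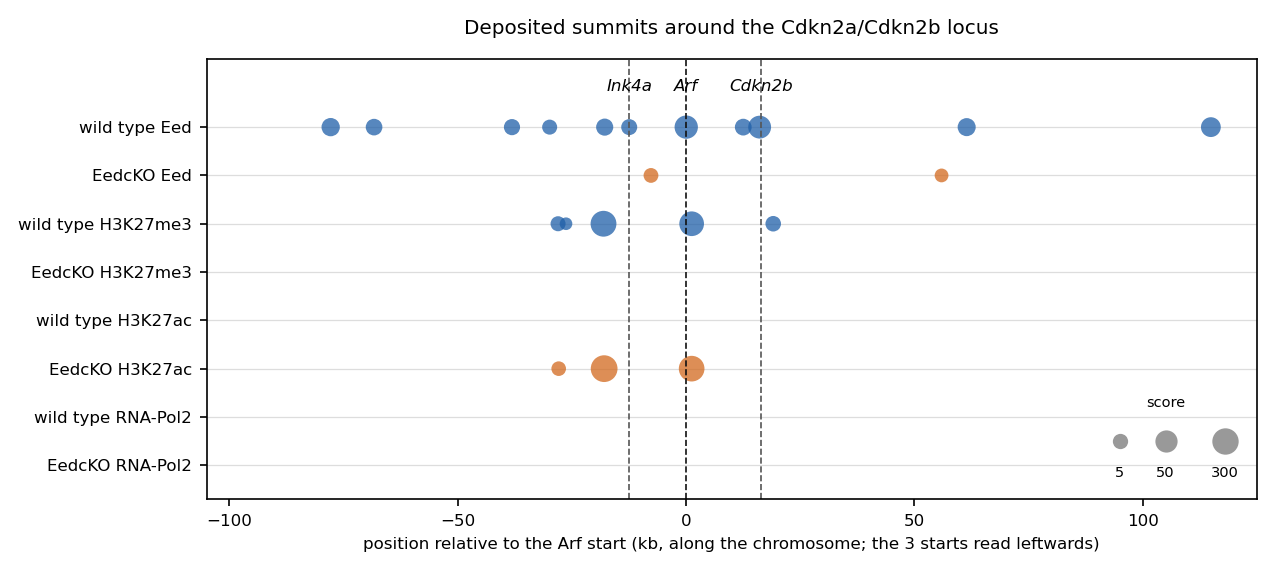
Deposited summits around the Cdkn2a/Cdkn2b locus, 1 row per antibody library as labelled, by position along the chromosome from the ARF start in kb (the genes read leftwards), with larger points for higher scores and dashed lines at the 3 starts. Wild type Eed summits sit at the ARF and Cdkn2b starts. The strongest wild type H3K27me3 summit sits inside Cdkn2a and the next 1211 bp upstream of the ARF start. The library labelled EedcKO H3K27ac has its 2 strongest summits at nearly the same places as these H3K27me3 summits.

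Over all 7 members, Cdkn2a and Cdkn2b included, summit positions relative to the centre of the promoter window also differed by target. Wild type Eed summits lay within 1 kb of the window centre for Cdkn2a, Cdkn2b, Cdkn2d and Cdkn1b, 4 of 7 genes beside 29.1% of all windows. For Cdkn2c and Cdkn1c the nearest ones were 1163 bp and 1322 bp away, with scores of 59.8 and 74.3. From the RefSeq starts of Cdkn2c that summit was within 1 kb. It lay 730 bp downstream of the upstream start and 654 bp upstream of the downstream start. No member had a wild type H3K27me3 summit within 1 kb (6.40% of all windows did), but 6 of 7 had one within 5 kb (10.3% of all windows). At Cdkn2b, Cdkn2d and Cdkn1a the nearest of these had low scores, 3.82 to 5.38. In Cdkn2c the nearest H3K27me3 summit scored 92.5 and lay 328 bp upstream of the gene's downstream RefSeq start, 1 of 2 starts 1384 bp apart. Cdkn1b, with its nearest H3K27me3 summit 144880 bp away, was the exception. A wild type H3K27ac summit within 1 kb was listed for Cdkn1b (10.3% of all windows), and a wild type RNA-Pol2 summit for Cdkn2d (4.92%). No member had a summit within 1 kb in EedcKO Eed (9.40% of all windows), or in the libraries labelled EedcKO H3K27me3 (1.18%) and EedcKO H3K27ac (5.92%).

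Cdkn1a is a gene for which the counted window and a second start site gave different values. Its window (chr17:29089976-29091975) holds the upstream start, with few CpGs, and the downstream start at 29093769, 2790 bp further on, falls 1794 bp outside. That start lies in the window of the minus-strand gene 1700023B13Rik (chr17:29093461-29095460), which was chosen after its values were seen and whose reads cannot be assigned to either gene. There H3K27me3 was 449 counts in wild type against 25 in IgG (log2 2.93, 2.42 to 3.65, 97.6th percentile), compared with 71 counts in the Cdkn1a window. Eed was 112 against 29 in input there, compared with 12 against 20 in the Cdkn1a window. Wild type H3K27ac and RNA-Pol2 were 87 and 130 counts there and 50 and 55 in the Cdkn1a window. Summits of wild type H3K27me3 (score 44.7), Eed (8.49) and RNA-Pol2 (5.71) lay 594, 156 and 366 bp from the downstream start. With Cdkn1a read in this window, the INK4 minus CIP/KIP difference in wild type H3K27me3 was 0.79 in place of 2.11.

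Eed counts were lower in EedcKO at 6 of the 7 genes. Cdkn1c held 297 wild type and 48 EedcKO counts, Cdkn2a 207 and 48, Cdkn2c 170 and 38, and Cdkn2b 119 and 36. Cdkn1b held 139 and 67 counts, Cdkn2d 84 and 42, and Cdkn1a 12 and 35, while the input counts of all 7 lay between 17 and 41. Ratios are given as log2 of EedcKO over wild type after scaling by library totals, with 0.5 added to each value (RPKM, reads scaled by window length and library total) and the median promoter set to 0. The shift this takes from each Eed ratio is 0.88. The relative log2 ratio was -3.03 for Cdkn1c (-3.53 to -2.62), -2.56 for Cdkn2c, -2.51 for Cdkn2a (-3.03 to -2.08), -2.12 for Cdkn2b, -1.47 for Cdkn1b and -1.42 for Cdkn2d. Those 6 genes were at least 2-fold lower, beside 30.0% of all promoters tested, and none was at least 2-fold higher (22.6%). Cdkn1a had a ratio of 0.95 (0.13 to 2.19) on low counts, and it passed 2-fold higher under 4 alternatives (1.07 to 2.02). Without setting the median promoter to 0, 4 genes were past 2-fold lower, with Cdkn1b at -0.59 and Cdkn2d at -0.54. With input subtracted first the number was also 4, with Cdkn1b at -0.98 and Cdkn2d turned to 1.84. Read at its downstream start, in the window chosen after its values were seen, Cdkn1a held 112 wild type and 72 EedcKO counts. That ratio was -1.07 (-1.52 to -0.63), which includes the shift of 0.88 and whose interval spans 2-fold. By this ratio 7 of 7 would be lower. Over input, however, Eed there was nearly the same in both genotypes. It was log2 0.97 in wild type (0.40 to 1.64) and 0.89 in EedcKO (0.24 to 1.64). In EedcKO no member was at least 2-fold above its input, against 4.71% of all promoters tested. Among the members' own windows Cdkn1b was highest (log2 0.85).

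By label, the histone marks of the 2 genotypes moved in opposite directions at 4 genes. Cdkn2a held 1123 H3K27me3 counts in wild type and 26 in the library labelled EedcKO H3K27me3. Its H3K27ac counts were 28 in wild type and 1596 in the library labelled EedcKO H3K27ac. Over the 7 genes IgG ran from 22 to 37 counts for wild type, and from 17 to 46 for EedcKO. For Cdkn2b the 2 pairs were 568 and 38, and 35 and 747. For Cdkn2c they were 287 and 27, and 29 and 314, and for Cdkn1c 230 and 35, and 42 and 284. Taken by label, 4 of 7 genes were at least 2-fold lower for H3K27me3 (13.0% of all promoters tested) and the same 4 higher by 2-fold or more for H3K27ac (18.2%). None was 2-fold higher for H3K27me3 (6.81%) or lower for H3K27ac (11.7%). The relative log2 ratios were -5.29, -3.79, -3.28 and -2.61 for H3K27me3 of Cdkn2a, Cdkn2b, Cdkn2c and Cdkn1c, and 5.87, 4.48, 3.50 and 2.85 for H3K27ac. The other 3 genes stayed between -0.55 and 0.42 for H3K27me3 and between -0.54 and 0.38 for H3K27ac. Their counts were 69 and 75 for Cdkn2d, 71 and 47 for Cdkn1a and 65 and 86 for Cdkn1b in H3K27me3, and 97 and 68, 50 and 58, and 103 and 62 in H3K27ac. These 3 depended on the scaling. Without setting the median promoter to 0, Cdkn1b stood at 1.27 for H3K27me3, and Cdkn1b and Cdkn2d at -1.58 and -1.37 for H3K27ac. The median promoter itself then stood at 0.85 for H3K27me3 and -1.04 for H3K27ac. With IgG subtracted first, negative values were set to 0 and the median promoter was again set to 0. Cdkn1a then stood at -2.15 and Cdkn2d at 1.78 for H3K27me3, so that 5 members were lower, and Cdkn1b at -1.45 for H3K27ac. Before that shift, Cdkn1a lay further above IgG in the library labelled EedcKO H3K27me3 (13.91 against 9.266 RPKM) than in wild type (11.23 against 7.789). Its -2.15 thus comes from the shift. Wild type Cdkn2d for H3K27me3 and Cdkn1b in the library labelled EedcKO H3K27ac lay below IgG and were set to 0. At the downstream start of Cdkn1a, H3K27me3 was 449 and 95 counts (-2.17) and H3K27ac 87 and 567 (2.82), which makes 5 of 7 genes for each mark.

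With the 2 labels exchanged, none of these ratios reached 2-fold. The library labelled EedcKO H3K27ac then stood against wild type H3K27me3 at relative log2 ratios of 0.60 for Cdkn2a (0.49 to 0.71), 0.48 for Cdkn2b, 0.22 for Cdkn2c and 0.39 for Cdkn1c, and between -0.18 and 0.08 for the others. On this reading 4.49% of all promoters tested were lower by 2-fold or more, and 2.55% higher. The library labelled EedcKO H3K27me3 stood against wild type H3K27ac at -0.28 to 0.19 over all 7 genes, where 6.18% of all promoters tested were lower by 2-fold or more, and 13.0% higher. At the downstream start of Cdkn1a the exchanged pairs of counts were 449 and 567, and 87 and 95. By count, Cdkn2a, Cdkn2b, Cdkn2c and Cdkn1c were the 4 highest in the library labelled EedcKO H3K27ac, with Cdkn2c and Cdkn1c not differing beyond counting error (ratio 1.11, 0.939 to 1.30). Cdkn1b and Cdkn2d were highest in the library labelled EedcKO H3K27me3 and did not differ beyond counting error (1.15, 0.832 to 1.58). Over EedcKO IgG, the library labelled EedcKO H3K27ac had log2 values of 4.32, 2.88, 2.83 and 1.44 at Cdkn2a, Cdkn2c, Cdkn2b and Cdkn1c, 4 of 7 genes at least 2-fold above (6.22% of all promoters tested). The library labelled EedcKO H3K27me3 had none (5.85%). Whether the 2 libraries exchanged labels was not tested beyond these values, so the direction of the H3K27me3 and H3K27ac differences rests on the labels.

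**Figure D3:**
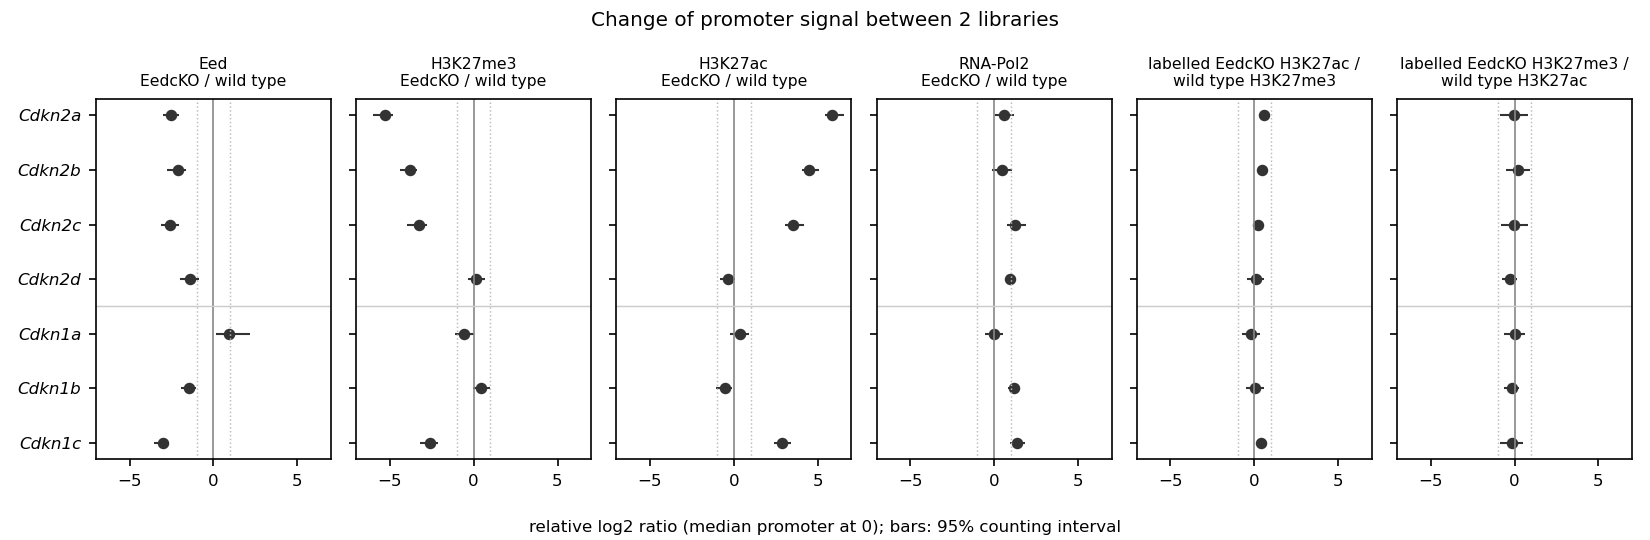
Relative log2 ratio of EedcKO over wild type (horizontal axis, 0 at the median promoter, dotted lines at 2-fold) for each CDK inhibitor gene, with 4 panels by label and 2 with the histone labels exchanged, and bars for the 95% counting interval. By label Cdkn2a lies at -5.29 for H3K27me3 and 5.87 for H3K27ac, and with the labels exchanged at 0.60 and -0.02.

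RNA-Pol2 counts were higher in EedcKO at all 7 genes, in a library whose total was also larger (3842779 against 2482297). Cdkn2d held 145 wild type and 330 EedcKO counts, Cdkn1b 102 and 268, Cdkn1c 56 and 171, and Cdkn2c 37 and 106. Cdkn2a held 45 and 80, Cdkn1a 55 and 63, and Cdkn2b 38 and 61, which are the smallest differences. The relative log2 ratios were 1.36 for Cdkn1c (0.95 to 1.85), 1.26 for Cdkn2c (0.75 to 1.88) and 1.16 for Cdkn1b (0.84 to 1.52). These 3 of 7 genes were at least 2-fold higher, beside 12.2% of all promoters tested, and none was at least 2-fold lower (7.86%). Cdkn2d had 0.96 (0.68 to 1.26), Cdkn2a 0.60 (0.07 to 1.17), Cdkn2b 0.46 and Cdkn1a 0.00. The Cdkn1a value is of its upstream start. At its downstream start, in the window chosen after its values were seen, RNA-Pol2 was 130 and 293 counts (0.94, 0.65 to 1.26). Counted so, the number at least 2-fold higher stayed 3. Without setting the median promoter to 0, a shift of -0.41, no member reached 2-fold. With IgG subtracted first, 2 members were at least 2-fold lower, Cdkn2a at -1.89 and Cdkn1a at -3.30, and Cdkn1b, at 0.34, was no longer past 2-fold higher, which left 2. At both lower genes the EedcKO value lay below IgG and was set to 0. It was 10.41 against 10.54 RPKM for Cdkn2a and 8.197 against 9.266 for Cdkn1a, so these 2 ratios rest on the floor.

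Against its own IgG, the EedcKO RNA-Pol2 library stood highest at Cdkn2d (log2 1.71), followed by Cdkn2c (1.27, 0.60 to 2.18) and Cdkn1b (1.22), 3 of 7 genes against 11.8% of all promoters tested. Cdkn2c had 37 counts against 25 in IgG in wild type and 106 against 17 in EedcKO, and it moved from the 47.6th to the 79.3rd percentile of all windows. Cdkn2a was level with IgG in EedcKO (80 counts against 33, log2 -0.02), where the median of all promoters tested was -0.63. EedcKO RNA-Pol2 summits lay within 1 kb of the window centre of Cdkn2c, Cdkn2d, Cdkn1b and Cdkn1c, 44 to 224 bp away, beside 19.7% of all windows. In the window over the downstream Cdkn1a start, EedcKO RNA-Pol2 was log2 1.07 over IgG (0.67 to 1.53). A summit lay 177 bp from that start. The EedcKO list held 25930 summits and the wild type list 3716, so the 2 lists cannot be compared gene by gene. Over the 55385 windows the EedcKO RNA-Pol2 library had a correlation of 0.890 with wild type RNA-Pol2 and 0.901 with wild type H3K27ac. The part of depth and library pattern in the RNA-Pol2 differences was not tested. All 3 CUT&Tag targets of a genotype were set against 1 IgG library, so their enrichments share its error.

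Genes that act with the CDK inhibitors were read in the same way from 4 lists, and their histone counts rest on the labels. Of 8 G1 cyclins and kinases, the partners that INK4 and CIP/KIP proteins inhibit, 5 were at least 2-fold lower for Eed in EedcKO and none higher (median -1.02), beside 30.0% and 22.6% of all promoters tested. Cyclin E genes led, with Ccne2 at 311 and 48 counts and Ccne1 at 262 and 61. Without setting the median promoter to 0, 3 were lower and 1 higher. For H3K27me3 by label, 4 of the 8 were lower by 2-fold or more (13.0% of all promoters tested), among them the D-type cyclins Ccnd2 (366 and 55) and Ccnd1 (248 and 39) and their kinase Cdk6 (164 and 30). By label their H3K27ac went the other way, with 83 and 543 counts at Ccnd2, 69 and 341 at Ccnd1 and 18 and 360 at Cdk6. Of the 8, 3 were at least 2-fold higher for H3K27ac and none lower, beside 18.2% and 11.7% of all promoters tested. With the labels exchanged none of the 8 was lower for H3K27me3, Ccnd2 and Ccnd1 stood at 0.66 and 0.55, and Cdk6 was higher (1.21).

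Of 13 pocket protein and E2F genes, which act downstream of the kinases, all 13 were at least 2-fold lower for Eed, beside 30.0% of all promoters tested. Their median was -2.18, with Rb1 at 230 and 51 counts. The number was 9 without setting the median promoter to 0, with Rbl2 at -0.17. For H3K27me3 by label 2 of the 13 were lower, a share near the 13.0% of all promoters, and 1 was higher. E2f8 (258 and 45) and E2f2 (58 and 26) were the lower pair and Rbl2 (31 and 68) the higher one, and none of the 13 passed 2-fold with the labels exchanged. For RNA-Pol2, 4 of the 8 G1 genes and 8 of these 13 were at least 2-fold higher and none lower, beside 12.2% higher among all promoters tested. Without setting the median promoter to 0, none of the 8 and 1 of the 13 were past 2-fold, Rb1 at 1.47.

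The p53 arm and the regulators of these genes gave a more divided picture. Mdm2, the ubiquitin ligase that ARF holds, had 158 wild type and 38 EedcKO Eed counts, whereas Trp53 (14 and 47) and Mdm4 (8 and 27) had more in EedcKO on low counts. For H3K27me3 by label none of these 3 genes was lower and Mdm2 was higher (39 and 84, 1.08), with Trp53 at 0.85, and with the labels exchanged they lay between 0.14 and 0.31. None of the 3 passed 2-fold for H3K27ac by label. Of 19 known regulators of CDK inhibitor genes, 14 were at least 2-fold lower and 2 higher for Eed, beside 30.0% and 22.6% of all promoters tested. Their median was -2.29, and the lower ones were led by the transcription factor gene Foxo1 (335 and 45) and the Polycomb genes Bmi1 (293 and 43) and Rnf2 (224 and 34). For H3K27me3 by label, 7 were lower and 2 higher, beside 13.0% and 6.81% of all promoters tested. For H3K27ac 5 were lower and 8 higher, beside 11.7% and 18.2%. Tbx3 and Tbx2, T-box repressors of Cdkn2a and Cdkn1a, had the largest differences of this list. Tbx3 held 1450 and 34 H3K27me3 counts (relative log2 ratio -5.29) and 32 and 2044 H3K27ac counts. Tbx2 held 1226 and 32 (-5.14), and 37 and 1631, and Bmi1 held 296 and 22, and 30 and 291. With the labels exchanged none of the 19 passed 2-fold for H3K27me3, where Tbx3, Tbx2 and Bmi1 stood at 0.59, 0.50 and 0.07. For RNA-Pol2, 2 of the 3 p53 arm genes and 9 of the 19 regulators were at least 2-fold higher. None was lower, beside 12.2% higher among all promoters tested. Without setting the median promoter to 0, the numbers higher were 0 and 1.

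Across the 12 libraries the members fell into different profiles. As a description over libraries that share depth and controls, the profile of Cdkn2a had a Pearson correlation of 0.989 with Cdkn2b, 0.951 with Cdkn2c and 0.889 with Cdkn1c (n = 12 libraries, log2 scale), and 0.27 with Cdkn2d. Cdkn2c and Cdkn1c had 0.956, and Cdkn2d and Cdkn1b had 0.891, so that 1 member of each family paired with the other family. Cdkn1a reached at most 0.587 with any other member. Among 19374 named protein-coding genes, the profiles most like Cdkn2a were those of the homeobox gene Nkx6-1 (0.997), the forkhead gene Foxc1 (0.996) and Flt1, a receptor for vascular endothelial growth factor (0.996). For Cdkn2b they were Flt3 (0.994), Moxd1 and Ppp2r2c (0.991 each). For Cdkn2c the closest was the forebrain homeobox gene Lhx2 (0.989), then Plaat5 (0.988) and Cdk5r2 (0.985), and for Cdkn1c the ligand gene Wnt7a (0.993), then Slc26a8 and Tmem266 (0.990 each).

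The 2 members with active marks had other neighbours in this ranking. Cdkn2d was closest to Supv3l1 (0.974), Ift140 (0.971) and Copb2 (0.969), and Cdkn1b to Erf and Atl2 (0.990 each) and the cofilin gene Cfl1 (0.989). Cdkn1a was closest to Sfxn3 (0.958), Kcnk10 (0.922) and Lrrc23 (0.921), the lowest likeness of the 7 genes.

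**Figure D4:**
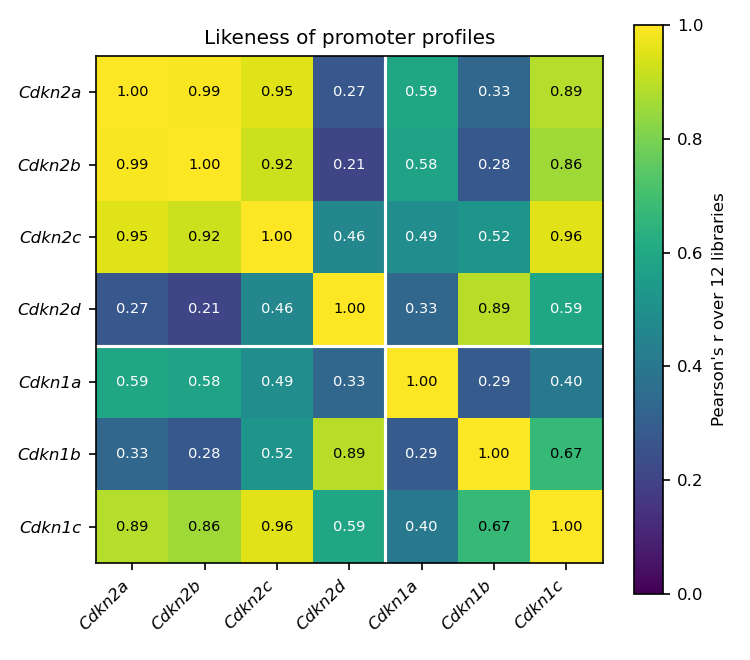
Pearson correlation between the promoter profiles of each pair of CDK inhibitor genes over the 12 libraries, from 0 (dark) to 1 (light), with white lines between the INK4 and CIP/KIP genes. Cdkn2a, Cdkn2b, Cdkn2c and Cdkn1c form 1 light group with values from 0.859 to 0.989, and Cdkn2d and Cdkn1b (0.891) a pair of their own.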

How the data were processed

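The submitters' processing notes name the mm10 build and list, without roles, the aligner Bowtie2 (2.4.1), the peak caller MACS2 (2.2.7.1), and the packages ChIPseeker (1.22.1) and deepTools (3.4.0). The deposited promoter tables are named as a normalized unit but hold whole numbers, which were treated as raw counts of reads in each promoter window. All scalings and counting intervals rest on that reading. Summits carry the authors' score, deposited on a -log10 scale of either p-values or q-values. Which of these it is, and how reads were filtered and duplicates handled, is not given in the sources used here.

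From these counts, RPKM values (reads scaled by window length and by the library's total over windows) were computed, with a pseudocount of 0.5 RPKM for log2 ratios, and ratios were centred on the median promoter among those averaging 1 RPKM or more. The window with the highest mean over the 8 antibody libraries stood for each symbol. A difference was counted from 2-fold (absolute log2 of 1), and intervals are exact 95% Clopper-Pearson intervals for counting error. The reads carry no stated molecular identifiers. The symbols of 27 windows in 1 of the files had been turned into dates, and symbols were taken from the other tables by row.

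The 7 members, the 4 pathway lists and the marker lists were chosen with earlier results of these data known. Named were all members, the 3 genes of each pathway list with the largest absolute ratio for H3K27me3 and for Eed, gene models near Cdkn2a or Cdkn2b, the 3 genes most alike each member, and Eed. Alternatives were other pseudocounts and filters, control subtraction, edgeR 4.0.16 TMM and DESeq2 1.42.0 size factors as scalings only, exchanged labels, and other summit distances and scores. The scripts (Python 3.11.15, pandas 2.3.3, scipy 1.17.1, R 4.3.3) were tested on simulated data. Promoter sequences come from RefSeq (GRCm38.p6), and protein sequences were not used here.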

Additional observations from a re-analysis of the deposited data

How the results depend on the processing

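No paired analysis was possible because each group holds 1 library, and for the same reason no replicate could be left out. Of 238 log2 ratios of single members recomputed under the alternatives, 183 stayed within their counting interval, 47 left it, and a further 8, of ratios past 2-fold, changed sign. Of the INK4 minus CIP/KIP differences, 45 of 48 moved by less than the counting error of their members. Scaling by library totals without centring left 1 member at least 2-fold higher for Eed, 1 higher for H3K27me3, 2 lower for H3K27ac and 0 higher for RNA-Pol2. The median promoter then stood at 0.88, 0.85, -1.04 and -0.41 for these targets in that order. Shares of all promoters were taken only with centring, so the uncentred counts of members and lists have no share to be read against. TMM without centring, and centring without a filter on low values, each gave 1 higher for Eed. Control subtraction gave 2 higher for Eed (with Cdkn2d at 1.84), 1 higher for H3K27me3, 1 lower for H3K27ac and 2 lower for RNA-Pol2. Except for Cdkn2d in Eed, each of these calls had a library below its control, which was set to 0. With exchanged labels, 0 members were lower for H3K27me3 and 0 higher for H3K27ac. The ratios were then 0.60, 0.48, 0.22 and 0.39 for H3K27me3 of Cdkn2a, Cdkn2b, Cdkn2c and Cdkn1c, and -0.02, -0.02 and -0.17 for H3K27ac of Cdkn2a, Cdkn2c and Cdkn1c. The cause of these changes was not tested beyond the construction of each alternative. For the pathway lists 2 alternatives were chosen after seeing the data. Without centring, the G1 cyclins and kinases had 3 lower and 1 higher for Eed, 1 higher for H3K27me3, 4 lower for H3K27ac and 0 higher for RNA-Pol2. The pocket protein and E2F list then had 1 lower and 7 higher for H3K27me3, 11 lower for H3K27ac and 1 higher for RNA-Pol2. For H3K27ac the uncentred median promoter was itself past 2-fold lower, which bears on the lower counts of every list. The p53 arm had 2 higher for H3K27me3, 3 lower for H3K27ac and 0 higher for RNA-Pol2, and the regulators 6 higher for H3K27me3 and 1 for RNA-Pol2. With exchanged labels, the numbers lower and higher for H3K27me3 were 0 and 1 of the G1 genes and 0 and 0 of each other list. For H3K27ac they were 1 and 1 of the G1 genes, 0 and 0 of the pocket protein and E2F genes, and 2 and 1 of the regulators. Within 5 kb in place of 1 kb, summits were listed for 7 members in wild type Eed, 3 in EedcKO Eed, 6 in wild type H3K27me3, 2 in wild type H3K27ac, 3 in the library labelled EedcKO H3K27ac and 2 in wild type RNA-Pol2. The share of all windows with a summit within 5 kb was taken only for wild type H3K27me3 (10.3%). The other counts at 5 kb therefore have no share to be read against. With scores of at least 10, 0 members kept one in wild type H3K27ac, 0 in wild type RNA-Pol2 and 2 in EedcKO RNA-Pol2. The INK4 minus CIP/KIP difference in the library labelled EedcKO H3K27ac was 2.24 from family means and 1.41 with Cdkn1a read at its downstream start, an alternative chosen after seeing the data that gave 0.79 for wild type H3K27me3. Input and IgG held 17 to 46 counts in the members' windows, which limits every ratio against a control.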

Other observations

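The windows next to the other members gave values that belong to no comparison above. Kri1, centred 3438 bp from Cdkn2d, held 57 wild type and 53 EedcKO Eed counts, 93 H3K27me3 and 99 H3K27ac counts in wild type, and 120 wild type and 368 EedcKO RNA-Pol2 counts. Cdkn2d beside it held 145 and 330 RNA-Pol2 counts. Gm44732, which overlaps Cdkn1c, held 345 wild type and 48 EedcKO Eed counts, 272 wild type H3K27me3 counts and 357 counts in the library labelled EedcKO H3K27ac, and its values therefore share reads with those of Cdkn1c. Gm12606, just past Cdkn2a, held 17 wild type H3K27ac counts and 1233 in the library labelled EedcKO H3K27ac.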
